A study of Mus musculus with 10 samples.

Results

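The IL-6 family of cytokines and its STAT3 pathway were followed here as 10 genes, chosen by symbol from the 24452 named genes of the deposited table. They are the ligands *Il6*, *Lif*, *Osm* and *Il11*, the receptor chains *Il6ra*, *Il6st*, *Osmr* and *Il11ra1*, the transcription factor *Stat3* and its feedback inhibitor *Socs3*, and all 10 had a row in the table. RNA came from whole-thickness back skin of 10 mice, 5 of them WT and 5 carrying *Zfp36*ΔARE, with 1 library for each animal, all on a C57BL/6 background. Skin of both groups had received 400 nmol of the mutagen DMBA once and then 10 nmol of the tumor promoter TPA per application, 2 times a week for 20 weeks, starting in animals 7 weeks old, and the pieces sequenced held no tumor. *Zfp36*ΔARE mice lack an instability motif in the 3′-UTR of their own *Zfp36* gene in every cell of the body, so that more tristetraprolin (TTP) is made, and TTP binds AU-rich elements in mRNAs and speeds their decay. The labels do not say whether the allele was carried on one or both chromosomes, and no untreated skin was analysed here.

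Cytokines of this family signal through pairs of receptor chains that share gp130, the product of *Il6st*. Ligand binding activates JAK kinases on the chains, which phosphorylate STAT3, and STAT3 then enters the nucleus and switches on target genes, among them *Socs3*, whose protein binds gp130 and shuts the signal off. In skin, oncostatin M (*Osm*) from leukocytes acts on keratinocytes through *Osmr*, and epidermal STAT3 is known to be needed for papillomas in the DMBA and TPA model.

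TTP recognises the pentamer ATTTA, best when pentamers overlap or stand close together. In the mouse reference (GENCODE M21 on GRCm38, the same build as mm10), the 3′-UTRs of the 4 ligands held 6 to 10 pentamers each, at 2.2 to 14.1 per kilobase, where the median of 20968 genes was 1.18. The windows below show, for the ligands and *Socs3*, the 30 bases of the 3′-UTR with the most pentamers, written as DNA on the strand of the gene with each ATTTA in capitals. *Il6ra* is added for contrast, because its 3′-UTR of 1837 bases held a single pentamer.
Il6: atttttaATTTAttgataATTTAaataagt
Lif: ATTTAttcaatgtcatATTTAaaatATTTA
Osm: ttttatATTTAtaaggcctATTTAtaatgt
Il11: cagatcttATTTATTTATTTAttttggtac
Socs3: tgcacatatATTTAtATTTAtactcagaaa
Il6ra: tgtgaaagggaaATTTAttaaaaatgttac
These windows lie in the last exon of each gene, at chr5:30019684-30019713 (plus strand) for *Il6*, chr11:4272414-4272443 (plus) for *Lif*, chr11:4240945-4240974 (plus) for *Osm*, chr7:4773497-4773526 (minus) for *Il11*, chr11:117966135-117966164 (minus) for *Socs3* and chr3:89869332-89869361 (minus) for *Il6ra*. *Il11* held 10 pentamers, 3 of them overlapping in the window shown, and was 1 of the 2 members, with *Lif*, that held the longer motif TTATTTATT, which 7.19% of all 3′-UTRs contained. *Il6* had the densest 3′-UTR of the 10, with 6 pentamers in 427 bases, a density reached by 0.529% of genes. *Socs3* and *Osmr* held 4 pentamers each, *Stat3* held 2, *Il6st* held 9 spread over 5641 bases (1.6 per kilobase), and *Il11ra1* held 0 in 354 bases. These are matches to letters, and no binding was measured here.

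Total counts per library ran from 21638369 to 32583189 in WT and from 19595024 to 36419553 in *Zfp36*ΔARE skin. *Zfp36* itself rose from 1824 to 2496 normalized counts in WT libraries to 4196 to 6134 in *Zfp36*ΔARE libraries, with no overlap. Keratinocyte markers (*Krt5*, *Krt14*, *Krt1*, *Krt10* and others) were present in every library. Of 15543 genes tested with edgeR's quasi-likelihood test, 34.3% were called at an adjusted p of 0.05, of which the falls made up 19.1% and the rises 15.3% of all genes tested. With a fold change over 2 these shares were 8.31% in all, 6.64% for falls and 1.67% for rises, and in 23.1% of genes the groups did not overlap. Libraries stood apart in tissue markers and in Y-linked transcripts. WT replicates 1 and 3 had the highest summed fibroblast, endothelial, mast cell, adipocyte and skeletal muscle markers of all libraries. Hair shaft markers were low in the same libraries, at a summed 413 and 64.2 CPM (counts scaled to the effective, TMM-adjusted library size). The other 3 WT libraries had 2275 to 3071 CPM of hair shaft markers. Every *Zfp36*ΔARE library, at 4456 to 13992 CPM, lay above every WT library, and the groups did not overlap in any of the 7 hair genes (median log2 fold change 2.30), of which 1 passed the test, *Krt35* (1.38, adjusted p = 0.048, edgeR). Y-linked transcripts, at 3349 to 4262 summed counts, were found in *Zfp36*ΔARE replicates 2 to 5, while the other libraries had at most 1, so the sex-linked difference cannot be told apart from genotype except through *Zfp36*ΔARE replicate 1. Skin is a mixture of cells, and in such bulk RNA fewer cells of a type and less RNA per cell cannot be told apart.

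Of the signalling chain, 3 receptor genes and *Stat3* were lower in *Zfp36*ΔARE skin, and the ligands, *Il11ra1* and *Socs3* did not pass the test. Of the 10 members, 9 passed the filter on low counts, and 4 of these 9 passed an adjusted p of 0.05, all lower in *Zfp36*ΔARE skin. These were *Il6ra*, *Il6st*, *Osmr* and *Stat3*, with log2 fold changes from -0.79 to -0.46. In *Il6ra* and *Il6st* the 2 groups did not overlap. No member reached a fold change of 2 (0 of 9 called with edgeR, DESeq2 or limma-voom, and 0 at an unadjusted p under 0.05 with that fold). The median log2 fold change over the 9 members was -0.46, against 0.0076 over all genes tested. A share of 4 in 9 stands beside 34.3% called and 19.1% called lower over all genes, and 2 of 9 without overlap beside 23.1%, the latter close to the share among all genes.

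**Figure D1:**
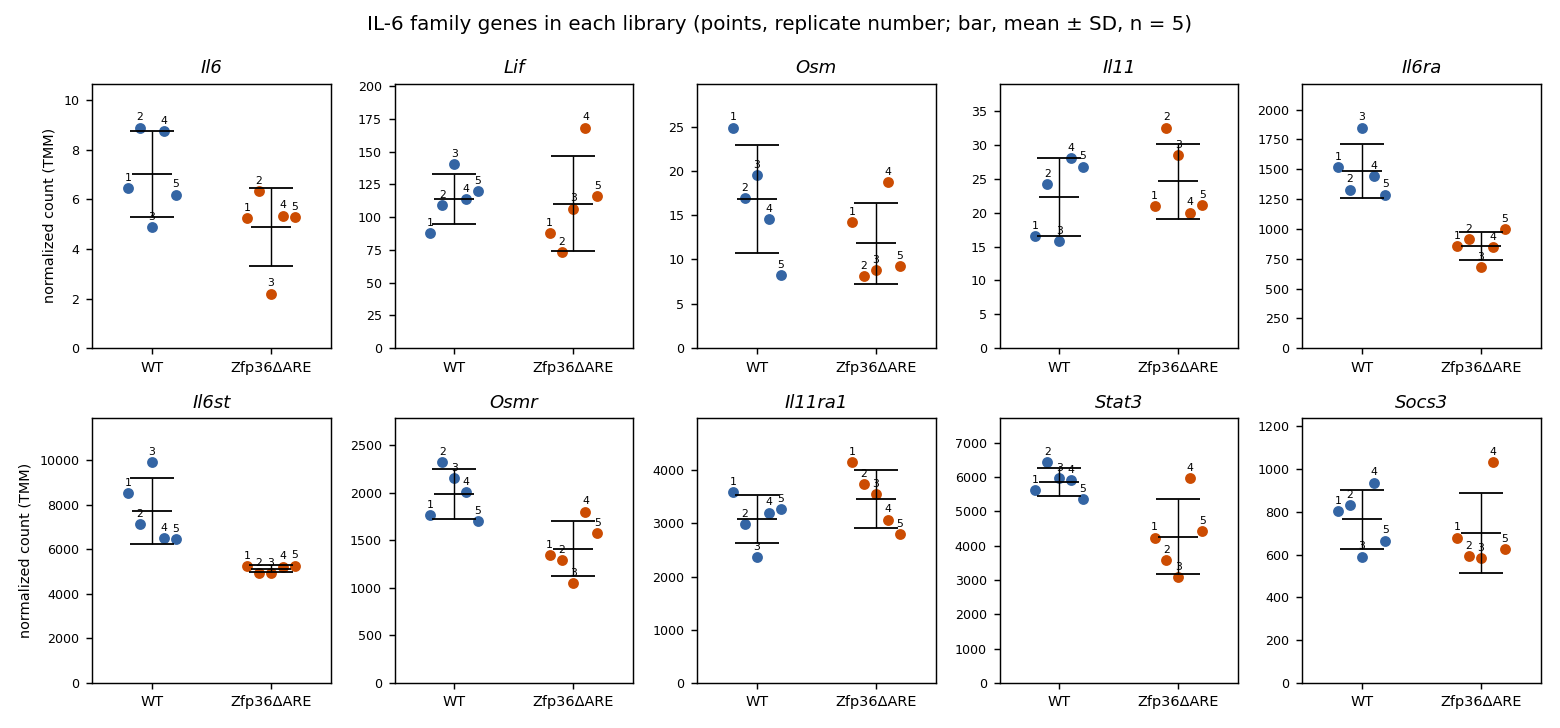
Normalized counts (TMM scaling) of the 10 members, 1 panel per gene with an axis from 0. Each point is a library with its replicate number, and the bar gives the mean and SD of 5 mice. *Il6ra* and *Il6st* separate the groups, *Osmr* and *Stat3* are lower on average with *Zfp36*ΔARE replicate 4 within the WT range, and the ligands and *Socs3* overlap.

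*Il6* was close to the limit of detection. The raw counts of *Il6* (Entrez 16193, chromosome 5, 30013114 to 30019981) were 7, 11, 4, 9 and 6 in WT replicates 1 to 5 and 7, 7, 2, 4 and 4 in the *Zfp36*ΔARE replicates. Summed over each group this was 37 and 24 counts. Scaled to the unadjusted library totals, these were 0.277 CPM (exact Poisson 95% interval 0.195 to 0.381) and 0.180 CPM (0.116 to 0.268). The intervals cover counting error only. *Il6* failed the filter, and its normalized counts of 7.03 ± 1.73 and 4.88 ± 1.57 (SD over 5 mice each) did not pass an exact two-sided permutation test (p = 0.095, where 5 against 5 can give 0.0079). Without the filter, edgeR gave a log2 fold change of -0.52 (standard error, SE, 0.36, adjusted p = 0.30).

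*Osm*, made mainly by leukocytes, was also scarce. *Osm* (Entrez 18413) had 24.9, 17, 19.5, 14.6 and 8.3 normalized counts in WT replicates 1 to 5 and 14.2, 8.1, 8.8, 18.7 and 9.2 in the *Zfp36*ΔARE replicates. WT replicate 5 lay among the lowest *Zfp36*ΔARE libraries, and *Zfp36*ΔARE replicate 4 lay among the higher WT libraries. The log2 fold change was -0.52 with a 95% interval from -1.27 to 0.24 (adjusted p = 0.25, edgeR), so neither no change nor a fall of more than 2-fold could be set aside. It was -0.33 without WT replicate 1 and -0.19 without WT replicates 1 and 3 (adjusted p = 0.49 and 0.76).

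*Lif*, leukemia inhibitory factor, had the most counts of the ligands. *Lif* (Entrez 16878, chromosome 11, 4257557 to 4272514) had 87.5 to 140 normalized counts in WT and 73.3 to 168 in *Zfp36*ΔARE skin, with means of 114 ± 19.1 and 110 ± 36.3 (SD over 5 mice each). Its log2 fold change was -0.05 (95% interval -0.54 to 0.43, adjusted p = 0.87, edgeR). The 5 *Zfp36*ΔARE libraries spread on both sides of WT, with replicate 4 at 168 and replicate 2 at 73.3. *Il11*, a cytokine of stromal and epithelial cells, ran from 15.9 to 28.1 normalized counts in WT and from 20.0 to 32.6 in *Zfp36*ΔARE skin. The log2 fold change of *Il11* was 0.14 (95% interval -0.39 to 0.67, adjusted p = 0.66, edgeR), and the groups overlapped.

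Pentamer density is set beside the differences here. *Il6ra*, *Stat3* and *Il6st*, which fell, held 0.544, 1.06 and 1.6 pentamers per kilobase, close to the median of all genes. *Osmr*, which also fell, and *Lif*, which did not pass, had nearly the same density, 2.23 and 2.2 per kilobase. *Il11*, with 8.38 per kilobase, and *Il11ra1*, with none, had log2 fold changes of 0.14 and 0.17. *Osm*, with 5.9 per kilobase, was at -0.52, and *Il6*, the densest with 14.1, was at -0.52 without the filter, and at their low counts neither passed. These values are a description of the members alone, and steady mRNA levels do not measure decay.

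**Figure D2:**
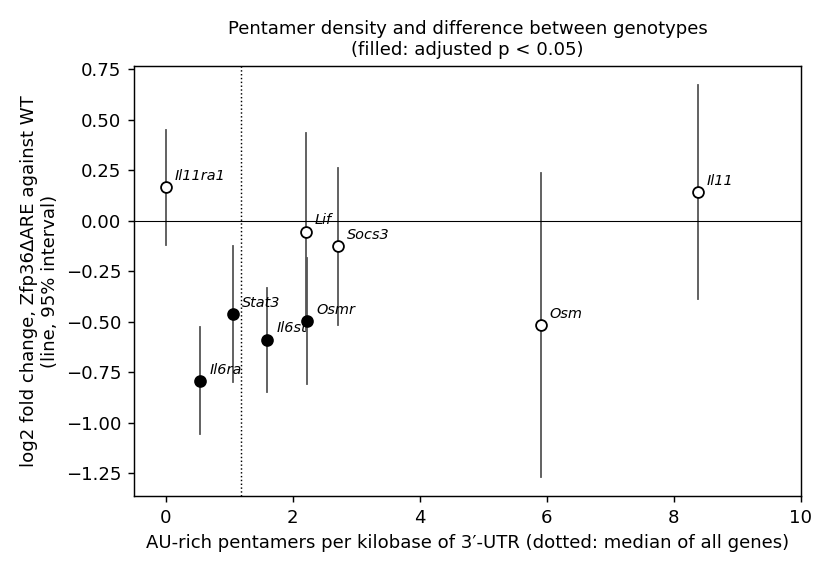
Log2 fold change between genotypes (vertical axis, line for the 95% interval) against ATTTA pentamers per kilobase of 3′-UTR (horizontal axis) for the 9 members that were tested. Filled points passed an adjusted p of 0.05 and the dotted line is the median density of all genes, 1.18. The 4 filled points lie between 0.544 and 2.23 pentamers per kilobase.

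*Il6ra* encodes the chain that gives cells their response to IL-6, and it had the largest fall among the members. *Il6ra* (Entrez 16194, chromosome 3, 89864059 to 89913196, minus strand, 10 exons) had 1520, 1330, 1849, 1444 and 1287 normalized counts in WT replicates 1 to 5. In *Zfp36*ΔARE replicates 1 to 5 it had 854, 913, 680, 845 and 997. Every *Zfp36*ΔARE library lay below every WT library. The means were 1486 ± 223 and 858 ± 116 (SD over 5 mice each), a log2 fold change of -0.79 (SE 0.12, 95% interval -1.06 to -0.53, adjusted p = 0.0045, edgeR), or 1.73-fold lower. An exact two-sided permutation test gave p = 0.0079, the smallest that 5 against 5 allow. It restates that the groups do not overlap, which held for 23.1% of all genes tested.

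*Il6st* encodes gp130, the chain that all these cytokines share. *Il6st* (Entrez 16195, chromosome 13, 112464070 to 112510086, plus strand, 17 exons) had 8522, 7148, 9902, 6494 and 6468 normalized counts in WT and 5248, 4946, 4947, 5227 and 5271 in *Zfp36*ΔARE replicates 1 to 5. The groups did not overlap, and the *Zfp36*ΔARE libraries lay close together, with an SD of 3.24% of their mean against 19.2% in WT. The log2 fold change was -0.59 (SE 0.12, 95% interval -0.85 to -0.33, adjusted p = 0.0079, edgeR), or 1.5-fold lower. WT replicates 3 and 1 were the highest, and without both of them the log2 fold change was -0.39 (adjusted p = 0.0071, edgeR). These libraries had little hair shaft RNA and also the highest summed fibroblast, endothelial, mast cell, adipocyte and skeletal muscle markers. The part that any of these contents plays in the level of *Il6st* was not tested.

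*Osmr*, the chain that pairs with gp130 to bind oncostatin M, fell by less. *Osmr* (Entrez 18414, chromosome 15, 6813577 to 6874969, minus strand, 18 exons) had 1761, 2317, 2149, 2003 and 1700 normalized counts in WT and 1345, 1289, 1045, 1800 and 1574 in *Zfp36*ΔARE replicates 1 to 5. Only *Zfp36*ΔARE replicate 4 reached into the WT range. The log2 fold change was -0.49 (SE 0.14, adjusted p = 0.024, edgeR), and it missed the threshold without *Zfp36*ΔARE replicate 2 (-0.46, adjusted p = 0.059) and without WT replicates 1 and 3 (-0.51, adjusted p = 0.070).

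*Il11ra1*, the IL-11 receptor chain, did not fall with the other receptors. *Il11ra1* (Entrez 16157, chromosome 4, 41699989 to 41769474) had 3589, 2989, 2359, 3201 and 3270 normalized counts in WT and 4145, 3743, 3543, 3070 and 2790 in *Zfp36*ΔARE replicates 1 to 5. The groups overlapped, with a log2 fold change of 0.17 (95% interval -0.12 to 0.45, adjusted p = 0.33, edgeR). Its close copy *Il11ra2* was listed at 0 counts in all 10 libraries, and how reads that match both copies were counted is not given in the sources used here.

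*Stat3* encodes the transcription factor on which the receptors converge. *Stat3* (Entrez 20848, chromosome 11, 100885098 to 100939540, minus strand, 24 exons) had 5627, 6430, 5978, 5906 and 5358 normalized counts in WT replicates 1 to 5. In *Zfp36*ΔARE replicates 1 to 5 it had 4235, 3581, 3084, 5966 and 4429. WT mice were alike, with an SD of 6.87% of the mean, while the *Zfp36*ΔARE mice varied by 25.7%, and replicate 4 lay within the WT range. The log2 fold change was -0.46 (SE 0.15, 95% interval -0.80 to -0.12, adjusted p = 0.039, edgeR), or 1.38-fold lower. This call did not survive the loss of single mice. Leaving out WT replicate 1, 2, 3 or 4 or *Zfp36*ΔARE replicate 1, 2, 3 or 5 gave an adjusted p from 0.057 to 0.091, with log2 fold changes from -0.48 to -0.37.

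*Socs3*, the feedback gene that STAT3 switches on, did not pass the test. *Socs3* (Entrez 12702, chromosome 11, 117966079 to 117970047, minus strand, 2 exons) had 803, 830, 591, 937 and 665 normalized counts in WT and 679, 593, 583, 1031 and 626 in *Zfp36*ΔARE replicates 1 to 5. The highest and the lowest of the 10 values were both in *Zfp36*ΔARE libraries. The log2 fold change was -0.13 (95% interval -0.52 to 0.26, adjusted p = 0.59, edgeR), an interval that leaves room for a fall of the size seen in *Stat3*.

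A STAT dimer binds palindromes of the form TTCNNNGAA, which read alike on both strands. Of the 9 members with a promoter entry in RefSeq (GRCm38.p6, 250 bases before to 50 bases after the start), *Socs3* was the only one with this motif. Over all, 9.55% of 27025 genes held it in a promoter, so 1 of 9 is close to the share among all genes. Its site lies at chr11:117969501-117969530 on the minus strand, centred 150 bases before the start that RefSeq gives there, and is shown with the motif in capitals.
Socs3 promoter: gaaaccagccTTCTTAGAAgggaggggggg
The GENCODE gene range given above begins farther upstream, at 117970047, so by that range the site lies inside the gene. The stricter form TTCCNGGAA was found in 0 of the 9 and in 1.35% of all genes. A match in a window of this length is a description and says nothing of binding.

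Compared per length, receptors and *Stat3* far exceeded the ligands. In FPKM, counts scaled for gene length and library size and computed with the deposited gene lengths, WT levels were highest for *Il11ra1* (45.1 to 68.6), *Il6st* (44.5 to 68.1) and *Stat3* (44.4 to 53.3), and these 3 ranges overlapped. *Il6ra* (14.3 to 20.5) and *Osmr* (13.2 to 18.0) came next and overlapped each other, followed by *Socs3* (8.13 to 12.9). The ligands lay below, with *Lif* from 0.756 to 1.21, and *Il11* (0.296 to 0.526), *Osm* (0.162 to 0.489) and *Il6* (0.160 to 0.292) overlapping in turn. In *Zfp36*ΔARE skin *Il11ra1* (53.3 to 79.2) stood clear above *Stat3* (25.6 to 49.5) and *Il6st* (34.0 to 36.2). *Il6ra*, at 7.54 to 11.1 FPKM, came after *Osmr* and *Socs3* in this group, with ranges that overlapped.

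Ratios of counts within a library do not depend on scaling, and 6 of them were computed after the data had been seen. The p-values from exact two-sided permutation tests on the log2 ratios were adjusted over these 6. *Il11ra1* per *Il6st* count was 0.421, 0.418, 0.238, 0.493 and 0.506 in WT and 0.790, 0.757, 0.716, 0.587 and 0.529 in *Zfp36*ΔARE replicates 1 to 5, higher in 5 of 5 mice (log2 difference 0.73, exact permutation p = 0.0079, adjusted p = 0.024). *Lifr* per *Il6st*, the chain that LIF binds relative to the chain it shares, went the other way, from 0.178 to 0.249 in WT and from 0.119 to 0.169 in *Zfp36*ΔARE skin (log2 difference -0.56, exact permutation p = 0.0079, adjusted p = 0.024). Neither pair of ranges overlapped, and the exact permutation p of 0.0079 restates this.
*Socs3* per *Stat3* count was 0.131 ± 0.0223 in WT mice and 0.166 ± 0.0174 in *Zfp36*ΔARE mice (SD over 5 each), a log2 difference of 0.35 (exact permutation p = 0.024, adjusted p = 0.048). The ranges overlapped, from 0.0988 to 0.159 and from 0.141 to 0.189, and without *Zfp36*ΔARE replicate 3 the exact permutation p was 0.056. Without WT replicates 1 and 3 it was 0.071, so the call was lost there too. These leave-out values were not adjusted over the ratios, an easier threshold than that of the call, so further omissions might also lose it. *Il6ra* per *Il6st* did not pass (log2 difference -0.22, exact permutation p = 0.063, adjusted p = 0.095), and *Osmr* per *Il6st* (0.06) and *Stat3* per *Il6st* (0.07) had an adjusted exact permutation p of 0.75 each. Lengths of the genes differ, so a ratio compares libraries and is not a ratio of molecules.

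**Figure D3:**
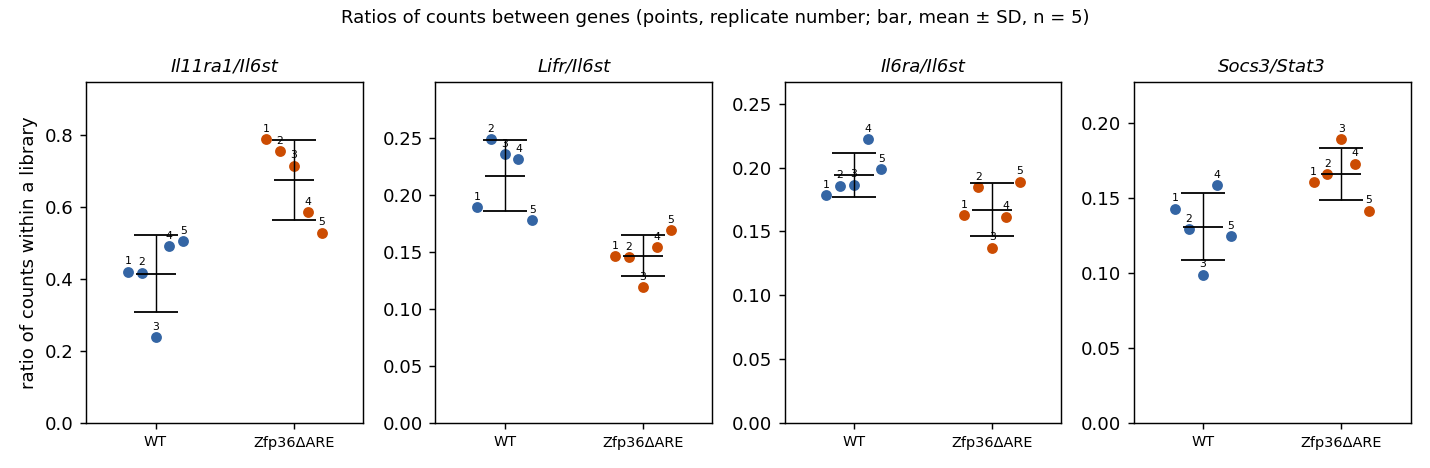
Ratio of raw counts of 2 genes within each library (vertical axes from 0), with a point and replicate number for each mouse and a bar for the mean and SD of 5. *Il11ra1* per *Il6st* lies from 0.529 to 0.790 in *Zfp36*ΔARE skin, above each WT library, and *Lifr* per *Il6st* lies from 0.119 to 0.169, below each WT library. *Socs3* per *Stat3* overlaps between 0.141 and 0.159.

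Within the *Zfp36*ΔARE group, *Stat3* and *Osmr* ranked the mice in the same order as the sum of keratinocyte markers. The summed level of 8 keratinocyte markers was 11418, 12149, 14023, 20228 and 25229 CPM in replicates 3, 2, 1, 5 and 4. *Stat3* and *Osmr* both rose in this order, and *Socs3* was lowest in replicate 3 and highest in replicate 4. Single markers did not all keep this order. Replicate 1 was the lowest of its group in *Krt1* (41387 normalized counts) and *Krt10* (82172) and the highest in *Col17a1* (20503). WT replicates 1 to 5 had 15997, 23397, 21505, 23163 and 20044 CPM. In WT the sum was lowest in replicate 1, while *Stat3* and *Osmr* were lowest in replicate 5. Of the 8 markers, *Itga6* and *Itgb4* were lower in *Zfp36*ΔARE skin at an adjusted p of 0.05 and all had negative log2 fold changes, with a median of -0.29. With the log2 of this sum as a covariate, an alternative added after the data were seen, the log2 fold change of *Osmr* was -0.29 (adjusted p = 0.049, edgeR) and that of *Stat3* was -0.26 (adjusted p = 0.073). *Il6ra* was at -0.74 (adjusted p = 0.025) and *Il6st* at -0.59 (adjusted p = 0.032) in this fit. Most of the marker sum came from *Krt5*, *Krt14*, *Krt1* and *Krt10*, none of which passed, and *Itga6* and *Itgb4* add little to it. The fit therefore does not measure the part of keratinocytes. The part that keratinocyte content plays in the difference of any of these genes was not tested.

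**Figure D4:**
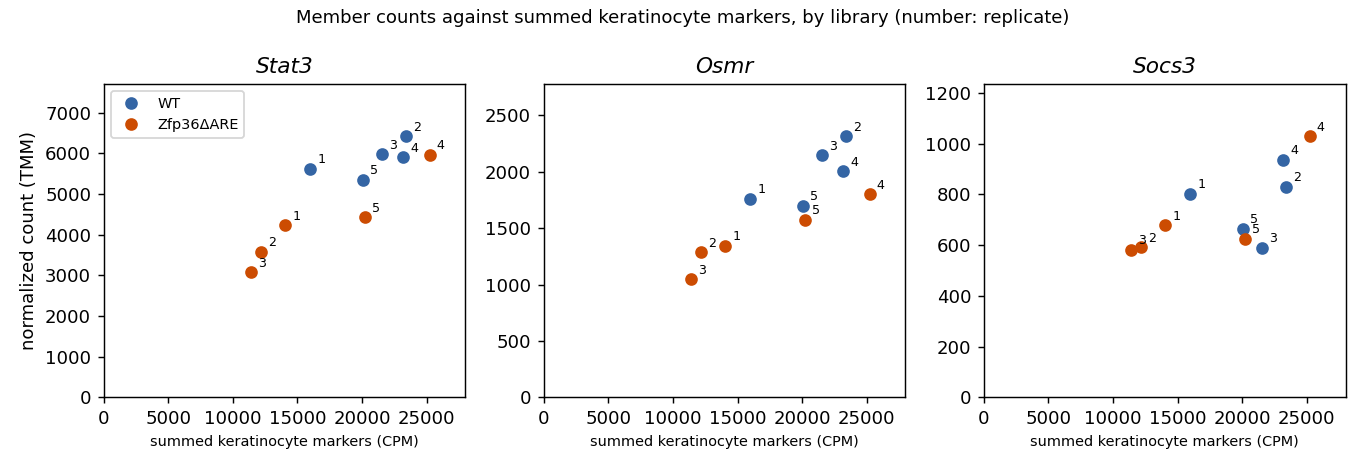
Normalized counts of *Stat3*, *Osmr* and *Socs3* (vertical axes) against the summed CPM of 8 keratinocyte markers (horizontal axis) in each library, numbered by replicate. *Zfp36*ΔARE replicates 3, 2 and 1 lie at 11418 to 14023 CPM, below the WT libraries, and replicate 4 at 25229 CPM lies above them.

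Markers of several other cell types were also lower in *Zfp36*ΔARE skin. Over all genes tested, 19.1% were called lower and 6.64% lower by more than 2-fold. Of 10 macrophage markers 9 were lower in *Zfp36*ΔARE skin, with a summed level of 635 to 1297 CPM in WT and 327 to 493 CPM in *Zfp36*ΔARE libraries, and *Mertk* was the exception (log2 fold change -0.12, adjusted p = 0.33, edgeR). All 6 mast cell markers were lower (186 to 523 against 66.9 to 108 CPM), as were all 7 endothelial markers (199 to 438 against 118 to 157 CPM) and 4 of 7 fibroblast markers (6191 to 13116 against 3508 to 9936 CPM). Of 7 adipocyte markers 5 were lower, each by more than 2-fold (1144 to 2267 against 788 to 1130 CPM), and all 7 skeletal muscle markers were lower by more than 2-fold (6595 to 34562 against 3196 to 9186 CPM, overlapping). For T cell markers, 0 of 6 passed (adjusted p, edgeR), with 20.0 to 35.0 CPM in WT and 21.0 to 27.3 CPM in *Zfp36*ΔARE skin. Of 8 neutrophil markers 3 passed the filter, 1 of them was lower (*Csf3r*, -1.39, adjusted p = 0.012, edgeR), and 5 were at 0 in at least 1 library, with sums of 16.6 to 29.1 and 6.96 to 29.2 CPM. The part that macrophages, mast cells, endothelial cells, fibroblasts, fat and muscle play in the fall of *Il6ra* and *Il6st* was not tested. With the fibroblast marker sum as a covariate, added after the data were seen, *Il6ra* was at -0.73 (adjusted p = 0.020, edgeR) and *Il6st* at -0.51 (adjusted p = 0.031). Most of this sum came from *Col1a1*, *Col1a2* and *Col3a1*, none of which passed. *Pdgfra* (-0.88) and *Dpt* (-1.28), the markers with the largest falls, add little to it. The fit therefore does not measure the part of fibroblasts.

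*Zfp36*ΔARE replicate 1, the mouse without Y-linked counts, lay below every WT library in all 4 members that fell, at 854 normalized counts for *Il6ra*, 5248 for *Il6st*, 1345 for *Osmr* and 4235 for *Stat3*. For *Il6ra* and *Il6st* this follows from groups that do not overlap. This mouse was also part of the fit that called the 4 genes, so its values are a description and no separate test. With the presence of Y-linked counts as a term in the fit, the genotype difference rests on this mouse alone. *Il6ra* was then at -0.80 (SE 0.23, adjusted p = 0.18, edgeR), *Il6st* at -0.55 (0.22, adjusted p = 0.21), *Osmr* at -0.56 (0.27, adjusted p = 0.24) and *Stat3* at -0.47 (0.29, adjusted p = 0.34). In that fit 0 of 15543 genes passed with edgeR, with 3382 at an unadjusted p under 0.05.

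Of 32 further genes of the pathway, listed with earlier results of these data known, 27 were tested, and at an adjusted p of 0.05 there were 10 that fell and 2 that rose, beside 19.1% and 15.3% over all genes, with a median log2 fold change of -0.13. The genes described here with values are those the naming rule gave (*Lifr*, *Socs2*, *Jak3*, *Stat5a* and *Ptpn11*) and others chosen after their values were seen. *Lifr*, the chain that binds LIF and also serves oncostatin M, had 1150 to 2337 normalized counts in WT and 591 to 890 in *Zfp36*ΔARE libraries, without overlap. Its log2 fold change was -1.15 (SE 0.17, adjusted p = 0.0045, edgeR). *Il31ra*, the partner of *Osmr* in the receptor for the itch cytokine IL-31, was lower at -1.57 (SE 0.35, adjusted p = 0.011), with 68.1 to 217 normalized counts in WT and 27.5 to 82.4 in *Zfp36*ΔARE skin. *Cntfr* (0.31, adjusted p = 0.28) and *Il27ra* (-0.59, adjusted p = 0.097) did not pass, and *Il11ra2* had no counts.

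*Jak1*, the kinase on which gp130 depends most, was at 5769 to 7651 normalized counts in WT and 3886 to 5071 in *Zfp36*ΔARE skin. Its log2 fold change of -0.58 (SE 0.10, adjusted p = 0.0066, edgeR) was close to that of *Il6st*. *Jak3*, a kinase of leukocytes, fell by 0.92 on the log2 scale (adjusted p = 0.0072), from 484 to 907 normalized counts in WT to 289 to 370. *Jak2* (-0.19, adjusted p = 0.062) and *Tyk2* (-0.12, adjusted p = 0.21) did not pass. Among the other STATs, *Stat5a* (-0.90, adjusted p = 0.0054) and *Stat5b* (-0.80, adjusted p = 0.0076), which mediate growth hormone and prolactin signals, were lower without overlap of the groups, and *Stat2*, *Stat4* and *Stat6* did not pass. *Stat5a* and *Stat3* run toward each other on chromosome 11, and their annotated ends overlap by a short stretch, from which reads cannot be told apart if counting ignored strand.

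The inhibitors were divided. *Socs2*, a feedback gene of STAT5, was lower at -1.26 (SE 0.24, adjusted p = 0.0072, edgeR), with 230 to 525 normalized counts in WT and 107 to 180 in *Zfp36*ΔARE skin. *Socs1* (0.16, adjusted p = 0.49) and *Cish* (-0.09, adjusted p = 0.69), like *Socs3*, did not pass. The phosphatase genes *Ptpn11* (0.34, adjusted p = 0.016) and *Ptpn2* (0.25, adjusted p = 0.014) were higher, *Ptpn11* from 5080 to 6793 normalized counts in WT and from 7311 to 8150.5 in *Zfp36*ΔARE skin, and *Ptpn6*, a phosphatase of blood cells, was lower (-0.47, adjusted p = 0.011). *Adam17*, which sheds the IL-6 receptor from cells, was lower by a small amount (-0.25, adjusted p = 0.015). Of the other ligands 4 were tested and *Ebi3*, a subunit of IL-27, was lower (-0.87, adjusted p = 0.020), from 66.0 to 91.5 normalized counts in WT and from 23.5 to 60.1 in *Zfp36*ΔARE skin. *Ctf1* and *Clcf1* did not pass.

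**Figure D5:**
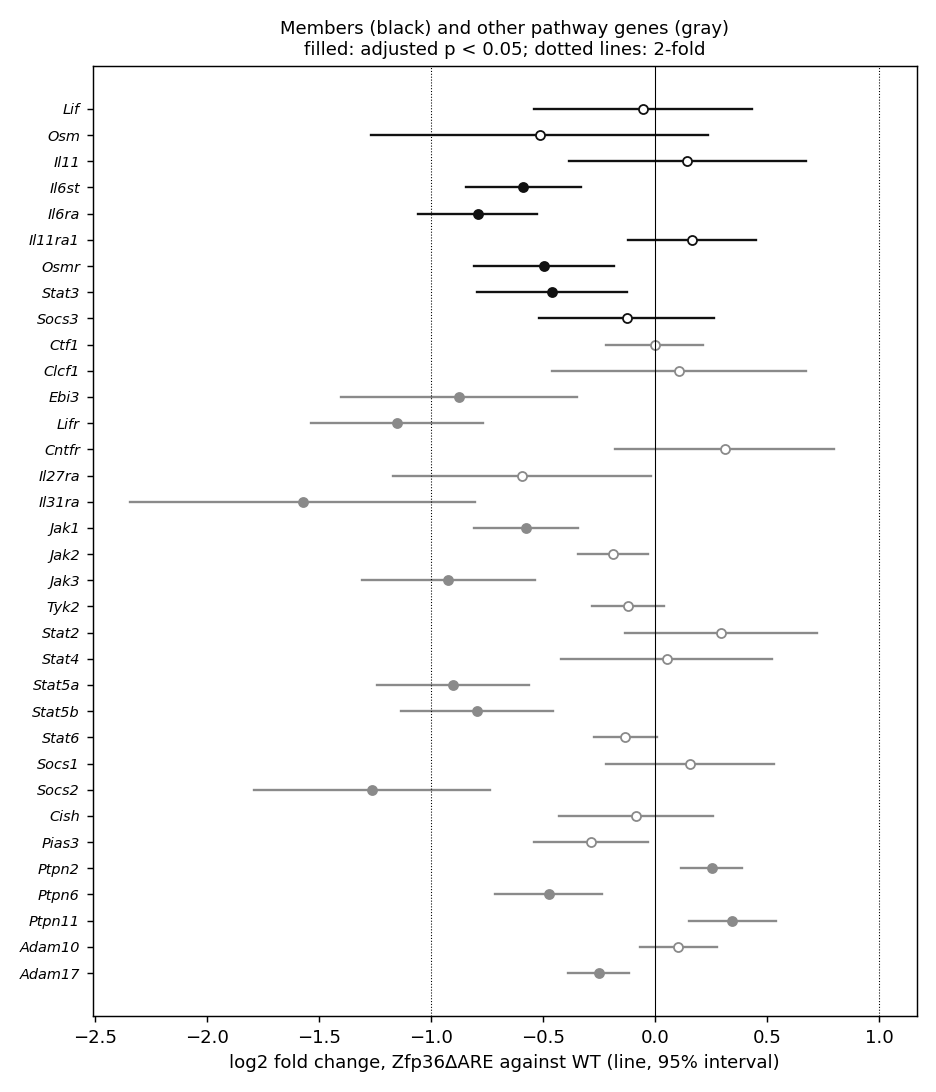
Log2 fold change of *Zfp36*ΔARE against WT skin (horizontal axis, line for the 95% interval) for the 9 tested members in black and 25 other pathway genes in gray. Filled points passed an adjusted p of 0.05 and dotted lines mark a 2-fold difference. *Lifr*, *Il31ra* and *Socs2* lie beyond 2-fold at -1.15, -1.57 and -1.26, and no member does.

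Genes that STAT3 is known to induce moved in both directions or did not pass. Of 22 listed targets, 4 were lower, 2 higher and 16 did not pass, beside 19.1% lower and 15.3% higher over all genes, so the counts lie near or below the background, with a median log2 fold change of -0.10 against 0.0076 over all genes. *Cebpd*, a transcription factor of the acute phase, was lower at -1.03 (SE 0.25, adjusted p = 0.014, edgeR), with 220 to 514 normalized counts in WT and 108 to 250 in *Zfp36*ΔARE skin. The secreted proteins *Lrg1* (-0.91, adjusted p = 0.015) and *Serpina3n* (-0.90, adjusted p = 0.017) and the repressor *Bcl6* (-0.56, adjusted p = 0.0072) were the others that fell, and in *Bcl6* alone of the 22 the groups did not overlap. *Pim1*, a survival kinase, was higher at 0.47 (adjusted p = 0.029), which did not hold without WT replicate 1 or 3 or *Zfp36*ΔARE replicate 2 or 3 (adjusted p from 0.052 to 0.067). *Bcl2l1*, a gene against apoptosis, was higher at 0.37 (adjusted p = 0.014). Haptoglobin (*Hp*), the target with the most counts, ran from 5648 to 11225 normalized counts in WT and from 2513 to 9840 in *Zfp36*ΔARE skin and did not pass (-0.51, adjusted p = 0.23). Without WT replicates 1 and 3, *Bcl6* alone passed (-0.52, adjusted p = 0.0072). In that fit *Cebpd* (-0.84), *Lrg1* (-0.74), *Serpina3n* (-0.81) and *Bcl2l1* (0.28) had an adjusted p from 0.051 to 0.083, and calls over all genes fell from 5335 to 2504.

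Of 8 genes for proteins that set the stability of *Il6* mRNA, *Zfp36* (log2 fold change 1.33, adjusted p = 0.0019, edgeR), *Rc3h1* (0.55, adjusted p = 0.0059) and *Elavl1* (0.20, adjusted p = 0.038) were higher and the others did not pass, beside 15.3% higher over all genes. *Zfp36* is the altered gene itself. *Rc3h1*, which encodes roquin, had 1439 to 1876 normalized counts in WT and 2056 to 2700 in *Zfp36*ΔARE skin. *Zc3h12a*, which encodes the ribonuclease regnase-1, was at -0.11 (adjusted p = 0.67), and *Zfp36l1*, the gene of this list with the most counts over all 10 libraries, at 0.02 (adjusted p = 0.79). *Elavl1* missed the threshold in 7 of 10 fits with 1 library left out, those without WT replicate 1, 2 or 3 or *Zfp36*ΔARE replicate 1, 2, 3 or 4 (adjusted p from 0.055 to 0.084).

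Which genes varied most like a member was asked over the 10 libraries after the mean of each genotype was subtracted, among 13684 genes with a mean of at least 50 normalized counts. For *Il6st* the nearest, by Pearson's r of log2(CPM + 1), were *Tnxb* (0.98), *Trim35* (0.97) and *Arl6ip5* (0.97), and *Tnxb*, a matrix protein of connective tissue, had a log2 fold change of -0.98. Nearest to *Osmr* were *Cmtm6* (0.97), *Slc6a14* (0.96) and *Cdk6* (0.95), and nearest to *Socs3* were *Arc* (0.96), *Cdipt* (0.94) and *Pfn1* (0.93). Between members, *Osmr* and *Stat3* varied most alike (0.92), and *Il6st* and *Il11* were most opposed (-0.82). These values describe 10 mice, picked as the highest and lowest among many. For *Il6st* the log2 deviations ran from -0.23 to 0.38 in WT and only from -0.051 to 0.040 in *Zfp36*ΔARE libraries. Its r values therefore rest mostly on the WT mice.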

How the data were processed

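Per the methods, the authors removed reads of mean quality under 20, aligned the rest to mm10 with STAR 2.5.2b, and counted fragments per gene with featureCounts (Subread 1.5.0-p1). The deposited values are raw counts, with no normalization, for 10 libraries, and 2 rows with no gene name (7.38e-05% of counts) were left out. Whether counting used strand, or split fragments that match several genes, is not given in the sources used here. The study tested these counts with DESeq2.

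TMM factors, the filterByExpr filter and robust quasi-likelihood fits came from edgeR 4.0.16 (R 4.3.3). Genotype was fitted over 15543 genes, with Benjamini-Hochberg adjustment over all of them and thresholds of 0.05 and a fold change of 2. Every adjusted p is from this test unless another is named. Normalized counts are counts divided by the effective (TMM) library size and multiplied by its mean, 26680948. FPKM and CPM were computed here from the counts, the effective library size and, for FPKM, the deposited gene lengths. The CPM of *Il6* with Poisson intervals used the library totals instead. The 3′-UTR of the APPRIS principal transcript, or the longest of these, was searched on the strand of the RNA, and overlapping pentamers were counted. Single values were compared by exact permutation tests. On simulated data with 200 changed genes in 15598 tested, 100% were recovered and 3.85% of calls were false. The planted changes were of 2-fold or more, and the simulated spread was smaller than that between these mice. The run therefore does not test the recovery of changes as small as those of the members. Alternatives were DESeq2 1.42.0, limma-voom (limma 3.58.1), other scalings and filters, a replicate block, covariates and leaving out libraries. All 10 members, up to 4 non-overlapping called genes of each further list by size of change, and its gene with the most counts were named by rule. The members and lists were chosen with earlier results of these data known. Where nothing in the labels says more, p-values set the difference between groups against the spread between these mice. They do not separate genotype from Y-linked counts or from the make-up of the biopsies. Some genes of the pathway list enter its counts and are not reported here by name.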

Additional observations from a re-analysis of the deposited data

Results flagged for a closer look

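Among 20 groups of 5 libraries, 1 for each member and genotype, 2 held a library far from the rest by Dixon's criterion at 95%, where chance gives about 1. *Socs3* was highest in *Zfp36*ΔARE replicate 4, at 1031 normalized counts, while the other 4 had 583 to 679, and the gap came to 0.786 of the whole range. The same library had the most keratinocyte marker RNA of the 10. *Il6* was lowest in *Zfp36*ΔARE replicate 3, at 2.20 normalized counts, while the others had 5.25 to 6.34 and the gap came to 0.736 of the whole range, which rests on 2 raw counts.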

How the results depend on the processing

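The 4 members past an adjusted p of 0.05 became 2 with the replicate number as a block, 2 without WT replicates 1 and 3, 2 with the fibroblast marker sum as a covariate and 0 with Y-linked counts as a covariate, in which fit the pathway genes, STAT3 targets and stability regulators past the threshold were also 0, 0 and 0 (edgeR, with 2 members, 8 pathway genes, 6 targets and 3 regulators at an unadjusted p under 0.05). The 2 that passed under the block were *Il6ra* and *Il6st*, with *Osmr* at an adjusted p of 0.060 and *Stat3* at 0.062. Same-numbered mice did not deviate together, since 0 of 5 pairs had a correlation over 0.1, so the numbers were not taken to pair the samples. With 1 library left out, 2 to 4 members passed, 2 of them without *Zfp36*ΔARE replicate 2. The 6 STAT3 targets became 1 without WT replicates 1 and 3 and 3 with the fibroblast covariate. The cause of these losses was not tested. *Il6ra*, *Il6st*, *Osmr* and *Stat3* were lower in each of 21 alternatives, and *Il6ra* and *Il6st* passed in 20 of them. Values near 0 changed sign. *Lif* ran from -0.25 to 0.066 with 1 library left out and was at 0.20 with the keratinocyte and 0.0084 with the fibroblast covariate, *Il11* was at -0.091 without WT replicates 1 and 3 and at -0.094 with the Y-linked covariate, and *Socs3* was at 0.044 with the keratinocyte covariate. The ratio of *Osmr* to *Il6st* ran from -0.027 to 0.15 with 1 library left out and was at -0.14 without WT replicates 1 and 3, and that of *Stat3* to *Il6st* from -0.049 to 0.17 and at -0.12. *Il6* and its few counts allowed a fit only without the filter.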
